A study of Drosophila melanogaster with 54 samples.

Results

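Mitochondria build their own ribosome, whose RNAs are made inside the organelle while every one of its proteins is encoded in the nucleus and translated in the cytosol. The genes considered here encode those proteins in Drosophila melanogaster. They were taken as all gene symbols of the unfractionated RNA tables that begin, case-sensitive, with mRpL (large subunit) or mRpS (small subunit), which gave 72 genes, 46 large and 26 small, of 14250 genes in all. In the release 6 annotation 11 of them lie on chromosome X, 12 on arm 2L, 12 on arm 2R, 17 on arm 3L and 20 on arm 3R. The symbol rule leaves out tko and bonsai, which also encode small subunit proteins of this ribosome.

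The mitochondrial ribosome makes the few respiratory chain subunits that mitochondrial DNA encodes. Its large subunit joins amino acids and holds the exit tunnel, and its small subunit holds the mRNA. The Drosophila egg is loaded with mitochondria and with maternal mRNA during oogenesis, and from the mature oocyte until the zygotic genome is switched on it changes protein output by changing which stored mRNAs are translated. Egg activation, which in flies needs no fertilisation, sets off such a change, and much of it depends on PAN GU, a protein kinase complex of which png encodes the catalytic subunit.

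The study followed mRNA translation through this step with polysome gradients and with ribosome footprints. Activated eggs were laid by OregonR virgin females kept with spermless twine (HB5) males, so that they were unfertilised, and were collected over 2 h; png eggs came in the same way from png1058/png1058 mutant females and were used in the footprint series alone. Mature oocytes were stage 14 egg chambers picked by hand from collagenase-treated ovaries of OregonR females 4 days old. Lysates were sedimented through sucrose and collected as free RNPs, 40S, 60S + 80S, low (2 to 4 ribosomes), medium (5 to 9) and heavy (10 or more) polysomes. Each stage had 2 gradients, with an unfractionated input each, and 1 further gradient of a lysate given 2 mM puromycin, which releases elongating ribosomes. The puromycin lysates were made in another buffer without cycloheximide, a drug that freezes ribosomes on mRNA, and were warmed, so their difference from the other gradients holds these steps as well. The footprint series held 1 RNA and 1 footprint library of each of png eggs, eggs and oocytes without cycloheximide and 1 of each with it, 12 in all, and these 2 drug states serve as the replicates. Nothing in the labels says that replicate libraries came from separate sets of flies, so p-values measure the spread between these libraries, which may be technical. That spread is moderated over all genes by limma, so a p-value does not rest on the replicates of its own mRNA alone. The RNA was poly(A)-selected. Only RPKM values, which are read counts per length of transcript and size of library, or values derived from them were used, so read depth is unknown.

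Each library was checked against marker genes of its tissue. All 12 germ line markers were detected in the 6 inputs. The 14 follicle cell markers found, mostly eggshell genes, summed to 0.39 and 0.534 RPKM in the 2 egg inputs, against 28500 and 23400 RPKM in the 2 oocyte inputs, where they were 4.66% and 3.70% of the library. The egg input with puromycin stood against its label, with 28700 RPKM of these markers. The oocyte puromycin gradient listed 11 of these markers, which gave 5.84% of its summed values. In the egg puromycin gradient only 1 of these markers was listed, and it gave 0.000862% of the summed values. Genes under a value of 4 in heavy polysomes are not listed, so the unlisted markers were not shown to be absent there. The summed values of this gradient correlated over 5559 genes with that input at a Spearman rho of 0.569. With the other inputs the rho was 0.719 and 0.878 for egg replicates 1 and 2, 0.841 and 0.845 for the oocyte replicates and 0.910 for oocytes with puromycin, so that the correlations do not place this gradient by stage. That input is therefore used in no result, other than as an alternative. In the oocyte gradients follicle markers made up 6.63% and 10.6% of the values and 21.1% and 28.1% of those in medium polysomes, against at most 0.0268% of that fraction in the egg gradients. The untreated egg gradients listed 0 and 2 of these markers. The part of follicle markers in the differences below was not tested.

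No gradient table has a gene under a value of 4 in heavy polysomes, and 5088 genes stood in all 6 of them. Of the 72 members 70 did, 45 large and 25 small, and these carry every gradient result. The other 2, mRpL53 and mRpS10, were in no gradient table and were listed at 0 in every input, while in the footprint series their RNA was 92.4 to 115 RPKM for mRpL53 and 131 to 171 RPKM for mRpS10. In the release 6 annotation all exon bases of mRpL53 also belong to CG33155, and mRpS10 shares none with another gene. The footprint table held 71 members, 46 large and 25 small; mRpS16 had no entry in it. Reads of members whose exons overlap another gene cannot be assigned with certainty. For overlaps on opposite strands, the sources used here do not say whether counting used strand. The overlaps of mRpL53 with CG33155 and of mRpL13 with CG10602 (35.2%) lie on the same strand, where counting by strand would not separate them. At least 20% of exon bases are shared in 8 of the 72, with mRpS24 at 55.3% the highest after mRpL53.

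In the unfractionated RNA these mRNAs were above the middle of all genes. Their median was 92.9 and 69.0 RPKM in eggs, against 72.5 and 66.8 RPKM in oocytes; over the 6622 genes with a mean of at least 1 RPKM it was 31.6 and 37.4 RPKM in eggs, against 39.0 and 35.3 RPKM in oocytes. In bulk samples fewer cells of a type and less RNA per cell cannot be told apart. The most abundant was mRpL12, homolog of the bacterial stalk protein that recruits translation factors, with 393 and 261 RPKM in eggs, against 262 and 303 RPKM in oocytes. Next came mRpS18A, with 299 and 164 RPKM in eggs, against 151 and 111 RPKM in oocytes, and mRpS7, a small subunit protein shared with bacteria, with 205 and 145 RPKM in eggs, against 127 and 123 RPKM in oocytes. The lowest member above 0 was mRpS24, at 27.9 and 27.1 RPKM in eggs, against 19.4 and 39.8 RPKM in oocytes.

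No member passed an adjusted p of 0.05 for input level in eggs against oocytes (limma on log2(RPKM + 1), with Benjamini-Hochberg adjustment over all genes tested); 3.47% of the 6622 genes did, 28 higher and 202 lower. Of the 70 members tested, 6 had an unadjusted p under 0.05, and 51 differences were above 0, with a median of 0.19 against -0.09 over all genes. The largest were 1.00 ± 0.36 (SE) for mRpL28 (240 and 115 RPKM in eggs, 102 and 66.7 RPKM in oocytes, adjusted p = 0.237) and -0.67 ± 0.28 for mRpL37 (24.9 and 34.5 RPKM in eggs, 51.1 and 43.4 RPKM in oocytes, adjusted p = 0.327). Without egg replicate 2, 22 members were called higher and 2 lower, and with replicate number as a block 3 were higher, mRpL28, mRpL49 and mRpS14. Replicate 1 of both stages had the yeast spike added to 14 collected fractions, per the labels, and between the replicate 1 inputs the median member difference was 0.52, against -0.03 between the replicate 2 inputs. In the footprint series, which used other libraries, no member passed for RNA level in eggs against oocytes, where 0.394% of 5840 transcripts did; 1 member had an unadjusted p under 0.05, and the largest differences were 0.44 for mRpL11 (adjusted p = 0.385) and -0.45 for mRpL38 (adjusted p = 0.555).

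The place of these mRNAs in the gradient differed between eggs and oocytes in 2 ways: more of most of them lay in free RNPs in eggs, and the members differed more from each other in free RNPs and medium polysomes there. The free RNP share had a median of 22.6% and 27.5% in eggs, against 9.69% and 9.99% in oocytes. It was higher in both egg gradients than in both oocyte gradients for 67 of 70 members, as for 92.0% of all genes. Over all genes the median free RNP share was 18.3% and 12.2% in eggs, against 4.77% and 2.97% in oocytes. The member quartiles ran from 15.75% to 31.3% and from 19.6% to 33.3% in eggs, against 7.61% to 13.05% and 6.48% to 13.2% in oocytes. Those of all genes were wider in eggs too, at 9.94% to 28.6% and 6.15% to 20.1%, against 1.99% to 8.12% and 1.22% to 5.80% in oocytes.

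The monosome fraction lost mRNA. The 60S + 80S share had a median of 12.5% and 14.5% in eggs, against 21.6% and 28.9% in oocytes. Both egg gradients lay below both oocyte gradients for 64 of 70 members, and for 50.7% of all genes. Heavy polysomes held 5.95% and 9.46% in eggs, against 14.9% and 12.1% in oocytes, and 47 of 70 members lay lower in both egg gradients (62.4% of all genes). Medium polysomes had almost the same median, 17.0% and 18.7% in eggs against 18.7% and 17.6% in oocytes, but the quartiles ran from 11.6% to 28.7% and from 12.6% to 30.6% in eggs, against 15.4% to 22.6% and 14.6% to 20.6% in oocytes. All genes showed a wider spread in eggs too, with quartiles of 8.10% to 21.6% and 8.39% to 19.3% in eggs, against 14.7% to 20.2% and 13.4% to 19.0% in oocytes. Of the 70 members 24 were higher there in both egg gradients and 19 lower, against 22.9% and 51.9% of all genes.

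**Figure D1:**
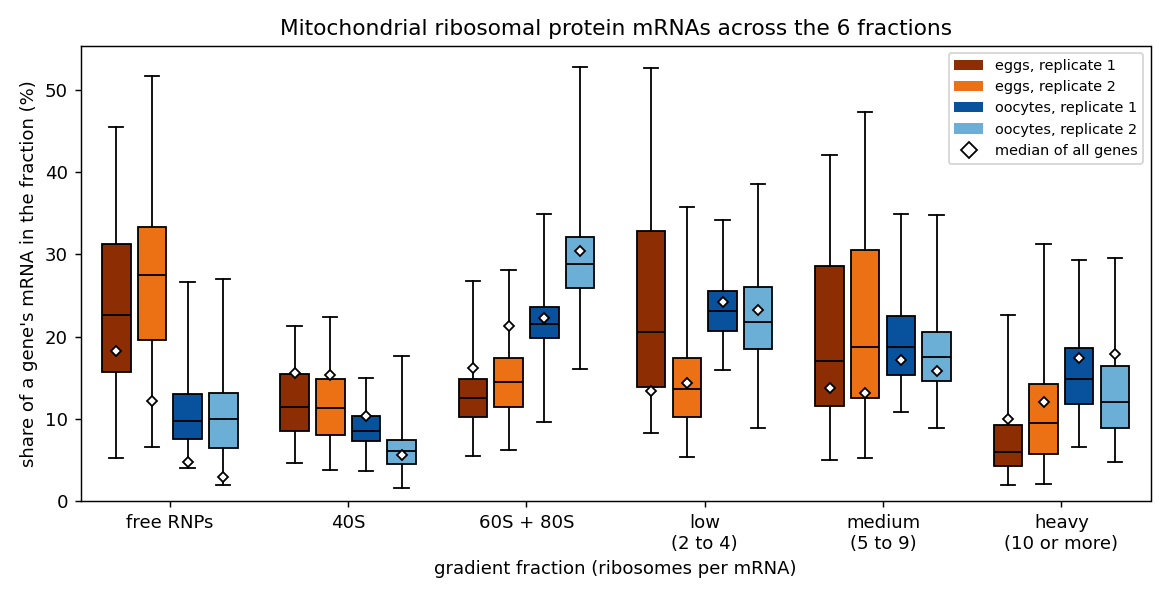
Share of each member's mRNA (y axis, %) in the 6 gradient fractions (x axis) for 70 members in 2 egg and 2 oocyte gradients. Boxes show quartiles and median, whiskers the whole range and white diamonds the median of all 5088 genes; free RNPs are higher and 60S + 80S lower in both egg gradients, and the egg boxes for medium polysomes are wider.

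The fraction with the largest part of each mRNA differed between the stages. In the egg gradients free RNPs led for 31 and 40 members (35.4% and 16.2% of all genes), medium polysomes for 19 and 25 (16.2% and 11.8%) and low polysomes for 20 and 2 (12.1% and 8.45%). In the oocyte gradients 60S + 80S led for 22 and 49 members (31.4% and 64.0% of all genes) and low polysomes for 29 and 15 (40.4% and 18.2%), while free RNPs led for 2 and 1 (1.97% and 1.51%). Heavy polysomes led for 0 and 2 members in eggs (16.4% and 20.2% of all genes), against 7 and 1 in oocytes (21.8% and 13.4%).

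Taken as log2 odds of lying in a fraction, with each gradient's values as deposited, the free RNP share was called higher in eggs for 58 members and lower for 0 of 70 (limma, adjusted p under 0.05); 79.3% of all genes were called higher and 0.550% lower. The median difference was 1.56 for members and 2.12 for all genes, and within replicate number 1 and number 2 the member median was 1.39 and 1.73. Without oocyte replicate 2 the count was 38. The largest difference was that of mRpL2, whose bacterial relative lies close to the catalytic centre: 32.6% and 29.4% of its mRNA was in free RNPs in eggs, against 6.45% and 4.71% in oocytes (2.92 ± 0.45 SE, adjusted p = 2.38e-09). For mRpS2, a small subunit protein shared with bacteria, the values were 38.1% and 32.7% in eggs and 8.63% and 5.47% in oocytes (2.85 ± 0.42, adjusted p = 2.75e-10), and for mRpL32, related to a bacterial large subunit protein, they were 24.1% and 37.3% in eggs and 5.47% and 6.37% in oocytes (2.74 ± 0.39, adjusted p = 1.84e-10). The stages did not overlap for any of the 3. With 2 gradients per stage, such small p-values rest on spread that limma borrows from other genes, and not on the replicates of these mRNAs alone. Once each gradient was centred on its own median, 0 members were called higher and 10 lower (10.3% and 13.7% of all genes). Scaling of fractions to equal totals gave 20 higher and 0 lower (44.2% and 1.43% of all genes). mRpL2, mRpS2 and mRpL32 lost their calls when centred, at 0.87, 0.80 and 0.69.

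The polysomal share, defined as medium plus heavy polysomes, was the main measure of translation. Its median over members was 28.8% and 28.2% in eggs, against 35.1% and 30.8% in oocytes. By limma at an adjusted p of 0.05, 8 members were higher in eggs (18.2% of all genes were), 28 were lower (51.0% of all genes) and 34 passed in neither direction. The median log2 odds difference was -0.37 for members and -0.60 for all genes. Both subunits followed this, with 5 of 45 large and 3 of 25 small subunit genes higher and 18 and 10 lower. The direction of the median turns with the scaling of the fractions: it was -0.01 when fractions were scaled to equal totals (15 higher, 12 lower, against 27.4% and 38.7% of all genes) and 0.14 once every gradient was centred on its own median (24 higher, 12 lower, against 31.3% and 37.0% of all genes), while the member median less that of all genes was 0.23, 0.22 and 0.23 under the 3 scalings.

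Single libraries moved these counts, and so did the replicate number, which is shared by the 2 gradients with the spike in 14 fractions. With that number as a block 8 members were higher and 19 lower. Without egg replicate 1, 18 members were higher; without oocyte replicate 2, 3 were higher; without oocyte replicate 1, 13 were lower. Shares over all genes are not given for these fits, so the counts do not tell whether other genes moved alike. Between the replicate 1 gradients the member median was -0.58, and between the replicate 2 gradients it was -0.06. Over all genes these medians were -0.72 and -0.50. Of the 28 lower members 13 kept their call whichever library was left out, and 10 kept it in every alternative tried: mRpS2, mRpS35, mRpL38, mRpL22, mRpL46, mRpL37, mRpL2, mRpL55, mRpL21 and mRpL40. Of the 8 higher members 3 kept it whichever library was left out.

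The fall was deepest for mRpS2, which had 16.5% and 13.5% of its mRNA in polysomes in eggs, against 43.7% and 44.4% in oocytes (-2.13 ± 0.18 SE, adjusted p = 0.000153). The gap between the stages was many times that between the gradients of either stage. A small subunit protein without a bacterial counterpart, mRpS35, had 11.4% and 11.3% in eggs, against 33.4% and 32.4% in oocytes (-1.92 ± 0.16, adjusted p = 0.000142). In the large subunit mRpL38, found in mitochondria but not in bacteria, had 10.7% and 12.8% in eggs, against 36.0% and 31.4% in oocytes (-1.91 ± 0.19, adjusted p = 0.000276). mRpL22, a relative of a bacterial protein that lines the exit tunnel, had 11.1% and 11.6% in eggs, against 32.5% and 30.0% in oocytes (-1.82 ± 0.16, adjusted p = 0.000187).

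Then came 4 large subunit genes that completed the 8 largest falls. They were mRpL46 (9.14% and 9.57% in eggs, 31.5% and 21.7% in oocytes, log2 odds -1.76), mRpL37 (10.1% and 12.7% in eggs, 30.9% and 30.7% in oocytes, -1.75), mRpL2 (29.3% and 21.5% in eggs, 55.6% and 41.4% in oocytes, -1.47) and mRpL55 (7.75% and 13.8% in eggs, 25.0% and 21.9% in oocytes, -1.38). The stages did not overlap for any of the 8. mRpL2 started from the top: it was among the 3 members with the highest polysomal share in oocytes, with mRpL51 and mRpS25.

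Rises were fewer and smaller. mRpS23, a small subunit protein of mitochondria alone, had 51.0% and 58.0% in polysomes in eggs, against 35.1% and 32.4% in oocytes (1.23 ± 0.20 SE, adjusted p = 0.00192). mRpL28, related to a bacterial large subunit protein, had 48.6% and 52.1% in eggs, against 32.4% and 30.1% in oocytes (1.16 ± 0.17, adjusted p = 0.00119). mRpL4, whose bacterial relative also lines the exit tunnel, had 50.0% and 59.2% in eggs, against 39.7% and 39.8% in oocytes (0.87 ± 0.22, adjusted p = 0.0120). These 3 are the rises that stood with any 1 library left out.

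The other rises were those of mRpS11 (39.7% and 47.8% in eggs, 33.5% and 27.9% in oocytes), mRpS22 (32.8% and 29.8% in eggs, 21.6% and 19.9% in oocytes), mRpL41 (49.8% and 56.0% in eggs, 42.2% and 37.0% in oocytes), mRpL19 (46.6% and 42.6% in eggs, 36.8% and 30.6% in oocytes) and mRpL39 (30.3% and 30.7% in eggs, 24.1% and 22.8% in oocytes). Their log2 odds differences were 0.81, 0.80, 0.77, 0.67 and 0.52 in that order. Without oocyte replicate 2 all 5 lost their call, at 0.62, 0.72, 0.62, 0.47 and 0.47, and mRpL39 also lost it without oocyte replicate 1, at 0.57.

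The gain of mRpS23 lay mainly in medium polysomes. It had 41.0% and 36.3% of its mRNA there in eggs, against 18.0% and 23.5% in oocytes, but 10.0% and 21.7% in heavy polysomes in eggs, against 17.0% and 8.93% in oocytes. With heavy polysomes alone counted, 0 of 70 members were higher (8.79% of all genes were) and 34 were lower (48.8%), and the median was -0.94 for members and -0.83 for all genes. Of the members called higher in polysomal share, mRpS11, mRpL28 and mRpL41 then lay at -0.20, -0.26 and -0.08. The others lay above 0, at 0.41 for mRpS22, 0.30 for mRpS23, 0.14 for mRpL4, 0.02 for mRpL39 and 0.01 for mRpL19.

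**Figure D2:**
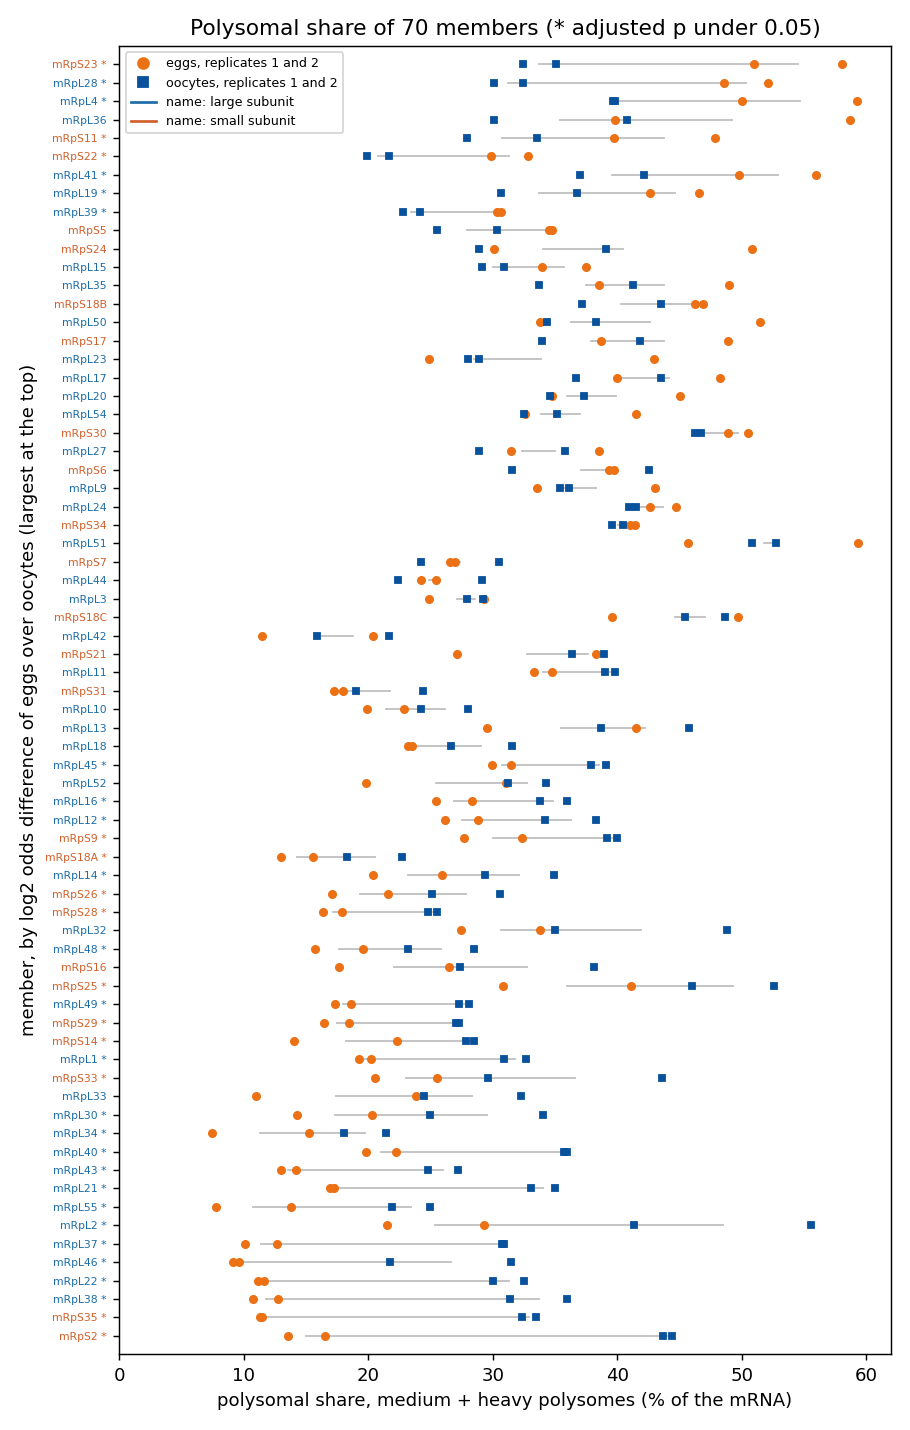
Polysomal share (x axis, % of the mRNA in medium plus heavy polysomes) of the 70 members, ordered by their log2 odds difference of eggs over oocytes with the largest rise at the top. Circles are the 2 egg gradients, squares the 2 oocyte gradients, grey lines join the means and asterisks mark an adjusted p under 0.05; 8 members are called higher and 28 lower, and in the bottom 6 rows the circles lie between 9.14% and 16.5%.

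Of 8 members named for their role or subunit, 5 were called lower and 0 higher: mRpS35, given above, with mRpS29, mRpL45, mRpL12 and mRpS18A. Homologs of mRpS29 in mammals bind GTP, and mRpL45 in humans lies beside the exit tunnel and holds the ribosome to the inner membrane. mRpS29 had a polysomal share of 18.4% and 16.5% in eggs, against 27.3% and 27.0% in oocytes (-0.82, adjusted p = 0.00477), and mRpL45 had 29.9% and 31.5% in eggs, against 39.1% and 37.9% in oocytes (-0.50, adjusted p = 0.0275). For mRpL12 the values were 26.1% and 28.8% in eggs and 38.3% and 34.2% in oocytes (-0.58, adjusted p = 0.0238). With the block on replicate number mRpL12 and mRpL45 lost their calls, at adjusted p of 0.0504 and 0.0517 by limma. The calls of these 3 were lost when gradients were centred, at -0.31, 0.01 and -0.07. mRpL45 and mRpL12 also lost theirs without oocyte replicate 1, at -0.46 each, and mRpL45 without oocyte replicate 2 (-0.53) or egg replicate 1 (-0.44). Not called were mRpS5 and mRpS7, both of bacterial type: mRpS5 had 34.5% and 34.8% in eggs, against 30.4% and 25.5% in oocytes (0.45, adjusted p = 0.0609), and mRpS7 had 27.0% and 26.5% in eggs, against 30.5% and 24.2% in oocytes (-0.04, adjusted p = 0.882).

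A pair of members carry a small subunit name although structures of the human mitochondrial ribosome place their counterparts in the large subunit. mRpS30, the longest member, had 48.9% and 50.5% in polysomes in eggs, against 46.7% and 46.2% in oocytes (0.18, adjusted p = 0.354). mRpS18A was one of the 3 lowest in oocytes, with 13.0% and 15.5% in eggs, against 22.7% and 18.3% in oocytes (-0.63, adjusted p = 0.0365), a call lost with the block (adjusted p = 0.0694) and without either oocyte replicate (-0.43 without replicate 1, -0.82 without replicate 2).

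The gap between the subunits was taken in each library. The median polysomal share of large less that of small subunit genes was -2.09 ± 0.40 percentage points in eggs and -0.95 ± 3.11 in oocytes (SD, n = 2 each); an exact two-sided permutation test of the change gave p = 1.0, but 2 gradients against 2 cannot go below 0.333, so that no such test here can show a change or the lack of one. In low polysomes the gap was -2.91 ± 1.03 points in eggs and 0.480 ± 0.301 points in oocytes, but with means in place of medians it was -0.46 and -0.102. In log2 input level it was -0.0343 ± 0.0182 in eggs and -0.115 ± 0.0344 in oocytes (SD, n = 2 each). In log2 translational efficiency, defined below with the footprints, the gap was not tested. Without and with cycloheximide it was -0.245 and -0.193 in png eggs, -0.448 and -0.122 in eggs and 0.0687 and 0.213 in oocytes. With means in place of medians it was 0.048 and 0.030 in png eggs, -0.0854 and -0.102 in eggs and 0.13 and 0.14 in oocytes.

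Low polysomes separated short from long members in eggs. Members encode short proteins, with a median coding length of 579 nt among the 70 and of 1362 nt among 4992 genes of the gradients. Across the 70 members the low polysome share correlated with coding length at a Spearman rho of -0.86 and -0.67 in the 2 egg gradients, against -0.42 and -0.18 in the 2 oocyte gradients; across all 4992 genes it was -0.30 and 0.11 in eggs and 0.17 and 0.04 in oocytes. These points share their libraries and are genes, not replicates. The shortest member, mRpL33 with 192 nt, had 52.7% and 28.9% of its mRNA in low polysomes in eggs, against 27.2% and 31.6% in oocytes. mRpL34, with 243 nt, had 48.2% and 35.7% in eggs, against 34.2% and 24.6% in oocytes, and was among the 3 lowest members by polysomal share in both stages, at 7.42% and 15.2% in eggs and 21.4% and 18.1% in oocytes. mRpL38, with 1248 nt, had 8.26% and 6.58% in low polysomes in eggs, against 20.3% and 23.8% in oocytes.

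**Figure D3:**
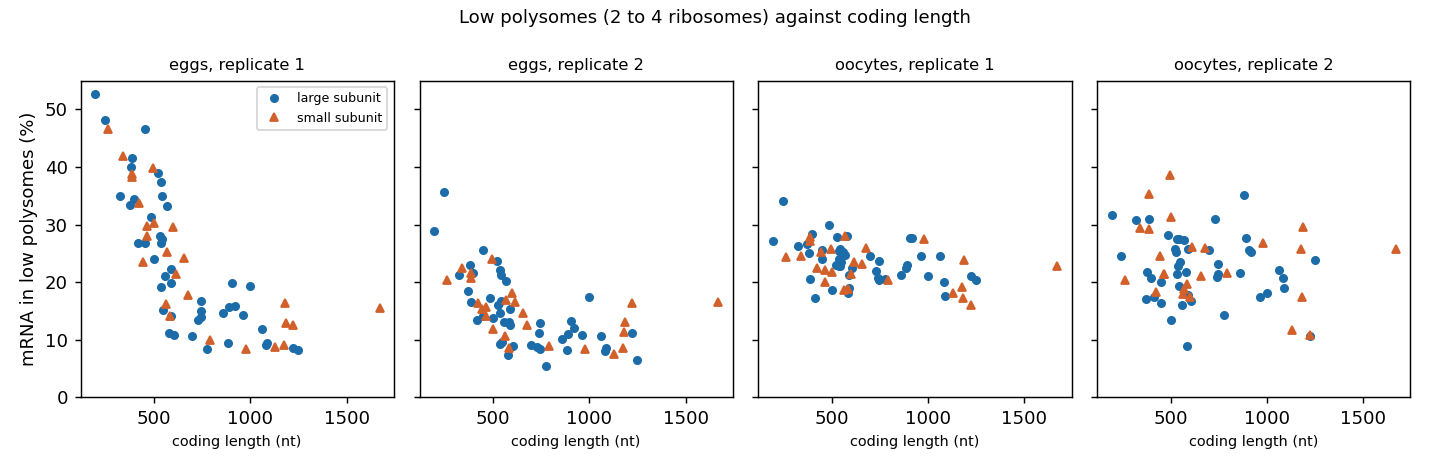
Share of mRNA in low polysomes (y axis, %) against coding length (x axis, nt) for 70 members, with 1 panel for each of the 2 egg and 2 oocyte gradients; circles are large and triangles small subunit genes. In egg replicate 1 the shortest members reach 52.7% and mRpL38, with 1248 nt, lies at 8.26%, while in egg replicate 2 the highest value is 35.7%.

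In the test of the low polysome share 0 members were higher (2.10% of all genes) and 28 lower (56.2%), with a median log2 odds of -0.40 for members and -0.87 for all genes. The largest falls were those of mRpL2 (9.51% and 8.15% in eggs, 22.5% and 35.1% in oocytes, -2.01, adjusted p = 0.000391 by limma), mRpS35 (8.36% and 8.42% in eggs, 27.4% and 26.7% in oocytes, -2.00) and mRpL38 (-1.79). The 2 egg gradients differed here: 65 of 70 members had more in low polysomes in egg replicate 1, by a median of 7.14 percentage points, while over all genes the median gap was -0.606. Without egg replicate 2, 14 members were called higher and 19 lower, and without oocyte replicate 1, 1 was higher and 25 lower. The sign of the member median turns with the scaling. It was 0.19 with fractions scaled to equal totals (2 higher and 3 lower, against 2.54% and 5.82% of all genes) and 0.53 with gradients centred (2 higher and 1 lower, against 4.95% and 1.79%).

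With puromycin the polysomal share of these mRNAs was lower in both stages. Each treated stage was 1 gradient, tested against the 2 untreated gradients on the assumption that it varied like the rest. The spread between puromycin gradients was not measured, and the calls and p-values below rest on that assumption; they compare these gradients, with their buffer and warming, and not the drug alone. In eggs the polysomal share with puromycin was 5.73% to 10.6% over the 70 members, with a median of 7.21%, against medians of 28.8% and 28.2% without it. In oocytes it was 7.24% to 33.1%, with a median of 19.4%, against 35.1% and 30.8% without it. In eggs 66 members fell and 0 rose (80.1% and 1.00% of all genes), with a median log2 odds difference of -2.24 against -1.83 over all genes. In oocytes 44 fell and 0 rose (49.5% and 0.550% of all genes), with medians of -0.89 and -0.70. The difference between the 2 stages was not tested. In oocytes the member median of medium polysomes was 7.47% with puromycin, against 18.7% and 17.6% without it. That of heavy polysomes was 11.3%, against 14.9% and 12.1%, so most of the heavy share was kept there. In eggs the medians were 4.72%, against 17.0% and 18.7% (medium), and 2.39%, against 5.95% and 9.46% (heavy). Over all genes the oocyte median of heavy polysomes was 14.4%, against 17.4% and 17.9%.

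The 8 members that rose in polysomal share at activation were among the 66; both comparisons use the same 2 untreated egg gradients, so these falls are no separate evidence. In eggs mRpL4 had a polysomal share of 7.29% with puromycin, against 50.0% and 59.2% without it (-3.92 ± 0.27 SE, adjusted p = 4.23e-05), and mRpS23 had 8.18%, against 51.0% and 58.0% (-3.73 ± 0.25, adjusted p = 4.10e-05). mRpL36 had 6.06%, against 39.8% and 58.7% (-3.87 ± 0.48). The 4 members without a call in eggs, mRpL34, mRpL42, mRpL46 and mRpL55, had untreated polysomal shares of at most 20.4% there; mRpL55 had 9.13% with puromycin, against 7.75% and 13.8% without it (-0.21, adjusted p = 0.631).

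In oocytes the deepest falls were those of mRpS25, a small subunit protein of mitochondria, with 7.24% in polysomes with puromycin, against 52.6% and 46.0% without it (-3.63 ± 0.32 SE, adjusted p = 0.000997), and of mRpL2, with 8.28%, against 55.6% and 41.4% (-3.37 ± 0.40, adjusted p = 0.00158). mRpL36 followed, with 10.4%, against 40.7% and 30.1% (-2.21, adjusted p = 0.0110). After puromycin 60S + 80S was the leading fraction for 51 of 70 members in eggs, where it led for 91.2% of all genes, and for 69 of 70 in oocytes, where it led for 74.8%. Scaling changed the counts. With fractions scaled to equal totals 1 rose and 41 fell in eggs (24.7% and 37.5% of all genes), and 0 rose and 21 fell in oocytes (29.7% and 16.6%). With gradients centred 9 rose and 30 fell in eggs (34.5% and 30.2%), and 0 rose and 20 fell in oocytes (14.1% and 20.2%). Without oocyte replicate 1 the oocyte count was 25.

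Footprints gave a further reading of translation from other libraries. Translational efficiency (TE) is given as log2 of footprint over RNA, each RPKM plus 1. Its median over the 71 members was -0.47 and -0.38 in eggs, against 0.39 and -0.11 in oocytes, without and with cycloheximide. All transcripts moved the other way, with medians of 0.03 and 0.09 in eggs, against -0.39 and -0.89 in oocytes. In a limma fit of footprints and RNA together, with cycloheximide as a covariate, 3 members were higher in eggs (46.0% of all 5840 transcripts) and 28 lower (24.7%). The median difference was -0.53 for members and 0.50 for all transcripts; for large subunit genes it was -0.61 (20 of 46 lower) and for small subunit genes -0.34 (8 of 25 lower). With libraries centred on their median 1 member was higher and 63 were lower (32.2% and 43.9% of all transcripts).

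The counts depended on the oocyte and egg libraries. Without the oocyte pair free of cycloheximide (replicate 1) 13 members were higher and 25 lower; without the pair with cycloheximide (replicate 2) 3 were higher and 51 lower. Without 1 or the other egg pair the counts were 2 and 1 higher and 14 and 15 lower. The 13 lower calls that were kept whichever pair was left out also held in every other alternative.

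The deepest falls in TE were in genes that also fell in polysomal share. mRpL38 had a log2 TE of -2.88 and -3.53 in eggs, against 0.54 and -0.29 in oocytes (-3.33 ± 0.36 SE, adjusted p = 3.63e-05), with footprints of 5.70 and 2.95 RPKM in eggs, against 95.1 and 50.4 RPKM in oocytes. mRpS2 had -3.34 and -2.50 in eggs, against 0.42 and 0.22 in oocytes (-3.24 ± 0.32, adjusted p = 2.01e-05), while its RNA was 46.2 and 40.0 RPKM in eggs, against 44.4 and 40.0 RPKM in oocytes. mRpS35 had -3.10 and -3.60 in eggs, against 0.07 and -0.40 in oocytes (-3.19 ± 0.29, adjusted p = 1.32e-05). In none of the 3 did the 2 states overlap.

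The 3 members that rose in TE were mRpS22, mRpL28 and mRpL39. mRpS22, another small subunit protein of mitochondria, had -0.15 and -0.56 in eggs, against -1.66 and -2.09 in oocytes (1.52 ± 0.26 SE, adjusted p = 0.000581), with RNA of 58.5 and 65.9 RPKM in eggs, against 54.6 and 53.6 RPKM in oocytes. mRpL28 had 0.63 and 0.39 in eggs, against -0.12 and -0.86 in oocytes (1.00 ± 0.25, adjusted p = 0.00598). mRpL39 had -0.22 and -0.20 in eggs, against -0.95 and -1.32 in oocytes (0.93 ± 0.24, adjusted p = 0.00679). Without the egg pair with cycloheximide mRpL28 and mRpL39 lost their call (0.90 and 0.86), as mRpL28 did without the other egg pair (1.10), and both lost it when libraries were centred (0.23 and 0.15).

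Both assays could be compared for 69 members, and they share no library. The change in polysomal share and that in TE had a Spearman rho of 0.67 across these members (0.62 across 3378 genes), with the same sign in 53. All 3 members called higher in TE were among the 8 called higher in polysomal share. Called lower in both were 17 members, which is 60.7% of the 28 lower in polysomal share and 63.0% of the 27 lower in TE. In these main fits no member was called in opposite directions. That depends on the scaling. With gradients centred 24 of 70 members were called higher in polysomal share, and with footprint libraries centred 63 of 71 were called lower in TE. Some members must then be called in opposite directions. The highest members by polysomal share in eggs, mRpL4, mRpS23 and mRpL41, were not called in TE: mRpS23 had footprints of 97.2 and 108 RPKM and RNA of 96.9 and 108 RPKM in eggs, against footprints of 114 and 63.5 RPKM and RNA of 100 and 88.3 RPKM in oocytes. In log2 TE mRpL4 had 0.26 and 0.75 in eggs, against 0.84 and 0.10 in oocytes.

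**Figure D4:**
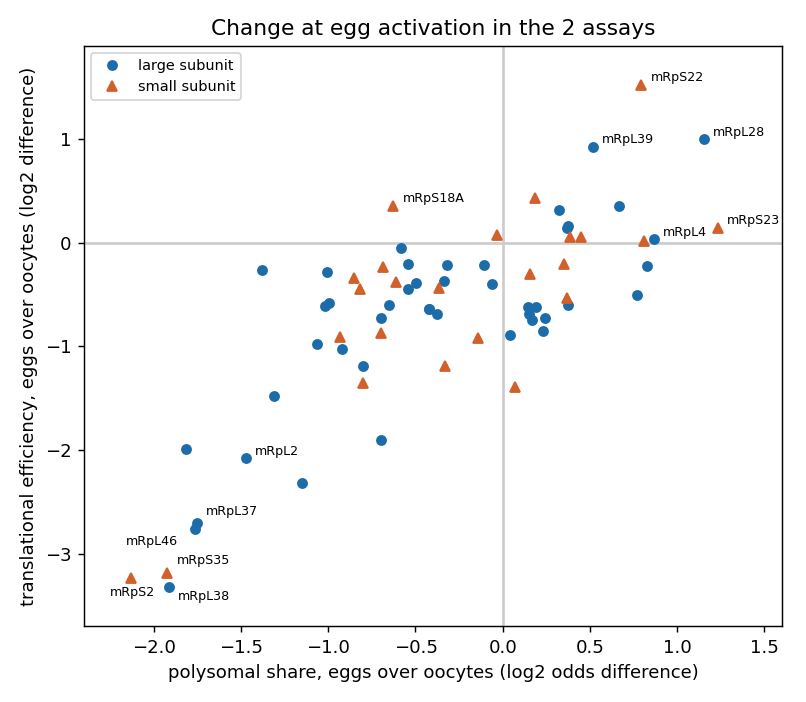
Change at activation in polysomal share (x axis, log2 odds difference) and in translational efficiency (y axis, log2 difference), both eggs over oocytes, for 69 members; circles are large and triangles small subunit genes. mRpS2, mRpS35 and mRpL38 lie at the lower left and mRpS22, mRpL28 and mRpL39 at the upper right.

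In png eggs the picture differed from gene to gene. The median log2 TE over members was -0.08 and -0.01 in png eggs, against -0.47 and -0.38 in eggs. In png eggs against eggs 20 members were higher in TE (32.1% of all transcripts) and 11 lower (38.0%), with a median of 0.24 for members and -0.11 for all transcripts; 14 of the 20 were large subunit genes, which are 46 of the 71 members. With libraries centred 45 were higher and 4 lower (47.3% and 31.2%). Of the 20 higher members 6, and of the 11 lower members 2, kept their call whichever pair was left out; without either oocyte pair 34 were higher and 15 lower, and without 1 of the egg or png egg pairs 8 to 12 were higher and 2 to 5 lower. This comparison and that of eggs with oocytes share the egg libraries, so values in the 3 states are given side by side.

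mRpS2 had a log2 TE of 0.09 and 0.24 in png eggs and -3.34 and -2.50 in eggs, and in oocytes it was 0.42 and 0.22. Its difference of png eggs from eggs was 3.08 ± 0.32 (SE, adjusted p = 2.25e-05 by limma), and that of png eggs from oocytes was -0.15 ± 0.32 (adjusted p = 0.693). mRpL2 had 1.57 and 1.74 in png eggs, -0.81 and -1.14 in eggs and 1.24 and 0.97 in oocytes, and its difference of png eggs from eggs was 2.63 ± 0.25 (adjusted p = 1.29e-05). mRpL53, a large subunit protein known from mitochondria, had 0.45 and 0.72 in png eggs, -1.68 and -1.92 in eggs and 0.43 and -0.35 in oocytes (2.38 ± 0.33 for png eggs against eggs, adjusted p = 0.000161). For these 3 genes png eggs lay above eggs in both drug states. All exon bases of mRpL53 also belong to CG33155 on the same strand, so its values cannot be told apart from those of CG33155. Against oocytes the difference of png eggs was 0.55 ± 0.25 for mRpL2 (adjusted p = 0.0805) and 0.55 ± 0.33 for mRpL53 (adjusted p = 0.181), so that neither passed.

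Others stayed low. mRpL38 had a log2 TE of -1.70 and -1.44 in png eggs, -2.88 and -3.53 in eggs and 0.54 and -0.29 in oocytes. mRpS35 had -1.99 and -1.66 in png eggs, -3.10 and -3.60 in eggs and 0.07 and -0.40 in oocytes. In both genes png eggs lay between the other 2 states: they were higher than eggs (1.63 ± 0.36 and 1.52 ± 0.29, adjusted p = 0.00278 and 0.00116) and lower than oocytes (-1.69 ± 0.36 and -1.66 ± 0.29, adjusted p = 0.00316 and 0.00108). mRpL37 was the same in kind, at -2.24 and -1.98 in png eggs, -3.10 and -3.20 in eggs and -0.34 and -0.56 in oocytes (-1.66 ± 0.24 for png eggs against oocytes, adjusted p = 0.000372).

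The largest falls in TE in png eggs against eggs were in 3 members whose TE had no called fall in eggs against oocytes. mRpL28 had a log2 TE of -1.97 and -2.09 in png eggs, 0.63 and 0.39 in eggs and -0.12 and -0.86 in oocytes, so that png eggs lay below both (-2.54 ± 0.25 against eggs, adjusted p = 1.86e-05; -1.54 ± 0.25 against oocytes, adjusted p = 0.000771). mRpS7 had -1.86 and -1.59 in png eggs, -0.48 and -0.30 in eggs and -0.47 and -0.46 in oocytes (-1.33 ± 0.19 against eggs, adjusted p = 0.000225). mRpL16, of bacterial type, had -1.94 and -1.84 in png eggs, -0.65 and -0.67 in eggs and -0.22 and -0.70 in oocytes (-1.23 ± 0.26 against eggs, adjusted p = 0.00238), a call lost without the egg pair with cycloheximide (-1.15) or the png egg pair free of it (-1.06).

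**Figure D5:**
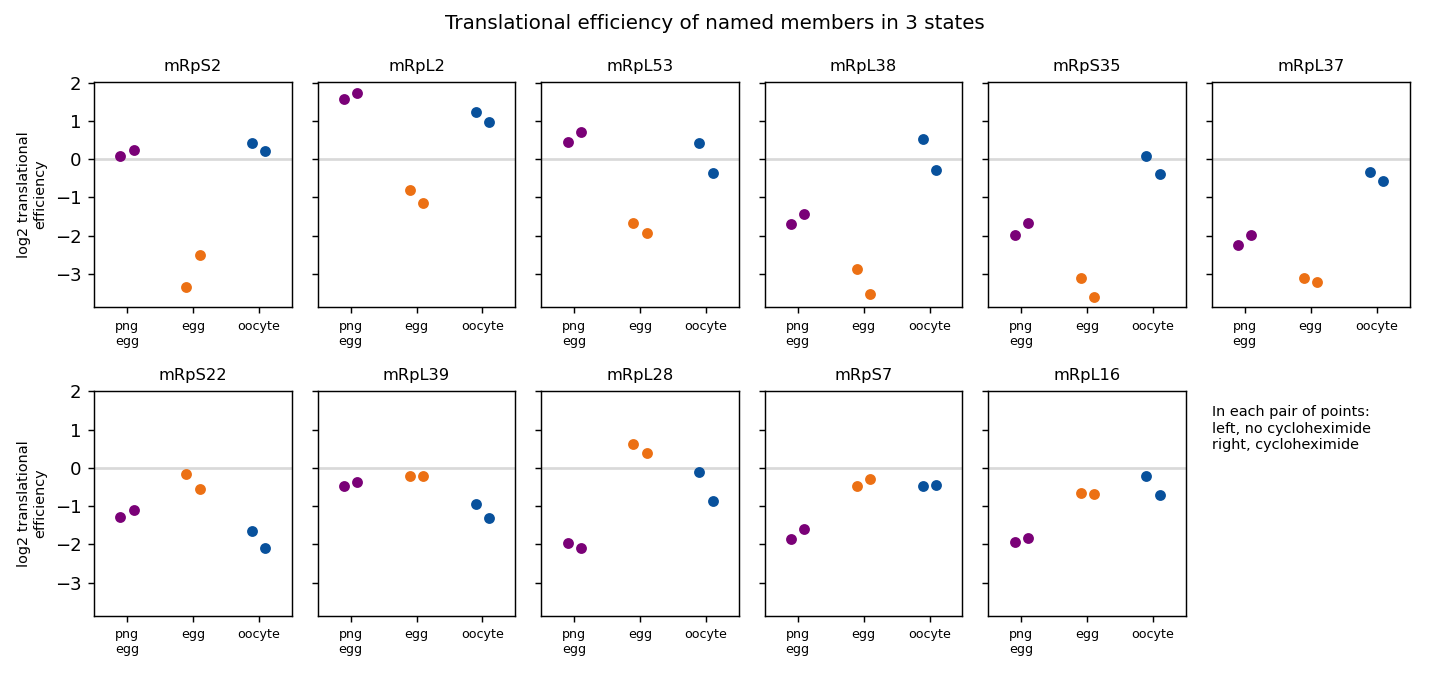
Log2 translational efficiency (y axis) of 11 named members in png eggs, eggs and oocytes (x axis, left to right); in each pair of points the left is without and the right with cycloheximide. mRpS2, mRpL2 and mRpL53 are low in eggs, mRpL38, mRpS35 and mRpL37 are low in png eggs too, and mRpL28, mRpS7 and mRpL16 are lowest in png eggs.

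Against oocytes, png eggs had 3 members higher in TE (36.0% of all transcripts) and 19 lower (23.3%), with a median of -0.36 for members and 0.21 for all transcripts. The 3 were mRpS30 (footprints of 105 and 105 RPKM in png eggs, 65.6 and 50.9 RPKM in oocytes, log2 TE difference 1.02), mRpL39 (-0.47 and -0.36 in png eggs, -0.95 and -1.32 in oocytes, 0.72) and mRpS22 (-1.28 and -1.09 in png eggs, -1.66 and -2.09 in oocytes, 0.70). All 3 lost their call when 1 or the other png egg pair was left out, with differences of 0.95 and 1.09, 0.87 and 0.58, and 1.00 and 0.39. Without the oocyte pair free of cycloheximide 19 members were higher, without the other oocyte pair 40 were lower, and without the png egg pair free of cycloheximide 10 were lower.

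In RNA level 1 member was called in png eggs against eggs. mRpL37 had 121 and 121 RPKM in png eggs, against 52.3 and 51.9 RPKM in eggs, and 63.2 and 59.1 RPKM in oocytes (1.20 ± 0.17 SE for png eggs against eggs, adjusted p = 0.00702). Of 71 members 1 was called higher and 0 lower, where 4.32% and 1.83% of all transcripts were. The difference was 1.17 to 1.22 without any 1 of the png egg or egg pairs, with adjusted p of 0.219 to 0.380. In the gradient series png eggs were not analysed here.

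Other nuclear genes that serve mitochondrial gene expression or import were looked at from a list of 31 symbols, of which 17 were found and 15 stood in all gradients. In polysomal share 2 of the 15 were higher in eggs and 11 lower, with a median of -0.95, where 18.2% of all genes were higher and 51.0% lower, with a median of -0.60. tko, which encodes the S12 protein of the mitochondrial small subunit, had 30.9% and 34.1% in eggs, against 42.1% and 39.9% in oocytes (-0.53, adjusted p = 0.0284 by limma), and bonsai, the S15 protein, had 24.9% and 29.1% in eggs, against 38.2% and 35.5% in oocytes (-0.66, adjusted p = 0.0170). The 2 that rose were TFAM and Tom40. TFAM, which packages mitochondrial DNA and acts in its transcription, had 55.0% and 51.6% in eggs, against 44.6% and 44.1% in oocytes (0.52). Tom40, the pore of the outer membrane import complex, had 47.5% and 44.8% in eggs, against 35.2% and 32.8% in oocytes (0.73). The chaperonin Hsp60 fell, with 9.46% and 10.3% in eggs, against 28.6% and 29.9% in oocytes (-1.91, adjusted p = 0.000163 by limma). The counts among the 15 depended on scaling. With fractions scaled to equal totals 3 were higher and 6 lower (27.4% and 38.7% of all genes), with a median of -0.48. With gradients centred 3 were higher and 6 lower (31.3% and 37.0%), with a median of -0.44.

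The proteins of the cytosolic ribosome also have short coding regions, with a median of 465 nt among 78 genes, but their mRNAs sat elsewhere in the gradients. The 79 such genes in all gradients had a median of 50.4% and 52.3% of their mRNA in free RNPs in eggs, against 41.3% and 41.3% in oocytes, well above the members. Their median polysomal share was 7.16% and 7.27% in eggs, against 13.1% and 13.1% in oocytes, with 0 of 79 higher and 63 lower (18.2% and 51.0% of all genes). The count of falls depended on scaling. With fractions scaled to equal totals 1 was higher and 7 lower (27.4% and 38.7% of all genes). With gradients centred 0 were higher and 20 lower (31.3% and 37.0%). With puromycin the median log2 odds of the cytosolic genes changed by -0.12 in both stages, against -2.24 in eggs and -0.89 in oocytes for the mitochondrial members. Their median polysomal share with puromycin was 6.79% in eggs and 12.3% in oocytes, against 7.21% and 19.4% for the members. The untreated share of the cytosolic genes in eggs was near what members had with puromycin. In oocytes it was 13.1% and 13.1%. Whether the level without puromycin limited the change of the cytosolic genes was not tested. With gradients centred their median change was 1.78 in eggs and 0.58 in oocytes.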

How the data were processed

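RNA of 54 libraries was sequenced by the authors. Alignment with TopHat 1.3.2 and Bowtie, counting with HTSeq and build dm3 are named in the submitters' processing notes. The deposited inputs and footprint series hold RPKM per gene or RefSeq transcript. The deposited gradient tables hold normalized RPKM per fraction and each fraction as a part of the sum; per the labels 5 ng of yeast mRNA was added as a spike, but the scaling is not described there. Shares were recomputed from the 6 values.

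Tests used limma 3.58.1 (R 4.3.3, trended eBayes, Benjamini-Hochberg) on log2(value + 1), with shares as log2 odds, over all genes with a mean sum of at least 10 or mean RPKM of at least 1; fold changes of low genes are understated on this scale. Fitted in 1 model were the 6 gradients, the 4 untreated inputs and the 12 footprint libraries. Named were the 8 largest called changes each way in polysomal share, the 3 largest in other comparisons, and members fixed for their roles. Members and lists were chosen with earlier results of these data known. Replicate numbers were checked as pairs: deviations of number 1 correlated between stages at -0.0295 (polysomal), 0.331 (free RNP) and -0.0276 (input). Number 1 of both stages shares its spiking per the labels, which pairs no animals; the main fit has no block, and the blocked fit is given beside results it changes. Tests were run on simulated data first. Genome sequence was not used here.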

Additional observations from a re-analysis of the deposited data

How the results depend on the processing

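Members called higher and lower moved as follows. For fits that leave out a library or pair, or use the block, shares over all genes are not given. With fractions scaled to equal totals, polysomal share in eggs against oocytes gave 15 and 12, puromycin 21 lower in oocytes and 1 and 41 in eggs, free RNPs 20 higher and low polysomes 2 and 3. With gradients centred, the counts were 24 and 12, 20 lower, 9 and 30, 0 and 10, and 2 and 1. Heavy polysomes alone gave 0 higher at activation and 8 lower with puromycin in oocytes, and a pseudocount of 5 gave 1 higher in low polysomes. With footprint libraries centred, TE gave 1 and 63 (eggs against oocytes), 45 and 4 (png eggs against eggs) and 39 lower (png eggs against oocytes), and RNA in png eggs gave 5 lower. With the replicate number as a block, which in the labels is tied only to how the spike was added, 3 inputs were higher, polysomal share gave 8 and 19, free RNPs 62 higher and low polysomes 27 lower.

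Leaving out 1 library or pair gave 3 to 18 higher and 13 to 32 lower (polysomal share), 0 to 0 and 25 to 58 (puromycin in oocytes), 0 to 0 and 63 to 70 (puromycin in eggs), 38 to 53 and 0 to 0 (free RNPs), 0 to 14 and 19 to 32 (low polysomes), 0 to 22 and 0 to 2 (inputs), 1 to 13 and 14 to 51 (TE, eggs against oocytes), 8 to 34 and 2 to 15 (TE, png eggs against eggs), 0 to 19 and 10 to 40 (TE, png eggs against oocytes), and 0 to 2 and 0 to 6 (RNA, png eggs against eggs). Subunit gaps, large less small, were -2.38 to -1.81 in eggs and -3.15 to 1.25 in oocytes (polysomal share), -3.64 to -2.18 and 0.267 to 0.693 (low polysomes), 0.711 to 3.80 and -0.195 to 0.785 (free RNPs), and in TE -0.245 to -0.193 in png eggs, -0.448 to -0.122 in eggs and 0.0687 to 0.213 in oocytes. With means they were -0.46 in eggs and -0.102 in oocytes (low polysomes), -1.09 in oocytes (free RNPs) and 0.0391 in png eggs (TE); with mRpS30 and mRpS18A moved to the large subunit the low polysome gap in oocytes was 0.0567.

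Signs turned in polysomal share for mRpL28 (-0.26), mRpL41 (-0.08) and mRpS11 (-0.20) with heavy polysomes alone, for mRpL19 (-0.10) and mRpS30 (-0.34) with low polysomes included, for mRpL45 with fractions scaled (0.10) or gradients centred (0.01), and for mRpS7 with either (0.44 and 0.47) or without oocyte replicate 1 (0.19). In TE of eggs against oocytes they turned when centred for mRpS18A (-0.42), mRpS30 (-0.34), mRpS5 (-0.71) and mRpS7 (-0.70), without oocyte replicate 2 for mRpL12 (0.00, and -0.09 without replicate 1), mRpS18A (-0.12 and 0.83) and mRpS7 (-0.04 and 0.18), and without egg replicate 2 for mRpS5 (-0.08, and 0.20 without replicate 1). The cause was not tested. Of 465 other alternatives for named genes 415 left direction and call as they were. Read depth is unknown, so low values carry no interval.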

Other observations

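In the egg input with puromycin, which stood against its label by its follicle markers, the members' median was 86.1 RPKM, and adding both puromycin inputs to the input test called 0 members higher and 0 lower. In low polysomes of the puromycin gradients the share rose with coding length across the 70 members, at a Spearman rho of 0.25 in eggs and 0.37 in oocytes, where it was 0.70 in both across 4992 genes; these points share their library. Among other genes of mitochondrial gene expression, the mitochondrial alanyl-tRNA synthetase Aats-ala-m had a polysomal share of 11.1% and 11.1% in eggs, against 40.2% and 40.4% in oocytes (-2.39, limma, adjusted p = 0.000115).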
